A study of Mus musculus with 6 samples.

Results

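The 44 genes described here encode proteins that copy DNA or separate the copied chromosomes, and they were followed in whole mouse liver 24 h after chemical injury. They were chosen by gene symbol, by a rule that uses no measured value although earlier results of these data were known, and fall into 22 replication genes (the *Mcm*, *Rfc* and *Gins* families, *Pcna*, *Cdc6*, *Cdt1*, *Cdc45*, *Rrm1*, *Rrm2*, *Tk1* and *Uhrf1*) and 22 mitosis genes (cyclins, mitotic kinases, checkpoint, centromere and spindle genes). All 44 were found among the 24346 genes of the table. At 24 h 21 of the 22 replication genes averaged 0.5 FPKM or more, *Cdc6* being the exception, while 12 of the 22 mitosis genes averaged under 0.5 FPKM (a level per transcript length and library size). Between livers labelled as control and as lacking hepatocyte Med23, *Cdt1*, *Mcm10* and *Prc1* were higher in the latter, no member fell past the test, and the other 28 members tested did not pass it, where 11.6% of all genes tested were higher and 9.48% lower. *Prc1* averaged under 0.5 FPKM in the controls and entered the test only through the group in which it was higher.

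A eukaryotic chromosome is copied from origins that are licensed in G1, when CDC6 and CDT1 load rings of the MCM helicase onto DNA. In S phase MCM10, CDC45 and the GINS complex turn these rings into moving helicases, the RFC clamp loader places the PCNA clamp behind them, and ribonucleotide reductase and thymidine kinase supply deoxynucleotides. Mitosis is then driven by CDK1 with cyclin B and by the Aurora and Polo kinases, with most of its genes switched on later than those of replication. Adult hepatocytes are mostly quiescent and re-enter the cycle after loss of liver mass or toxic injury such as that caused by carbon tetrachloride (CCl4), a solvent converted to a radical in hepatocytes.

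RNA sequencing was performed on whole livers of 6 male C57/BL6 mice, 8 weeks old, each given 1 intraperitoneal injection of 0.6 μl/g CCl4 in sunflower oil and euthanised 24 h later. The 3 controls (genotype label wt) carried the floxed *Med23* allele and are called med23 f/f. The 3 others (genotype label med23 ko) are called med23Δli, in which Cre under the *Albumin* promoter is described as deleting the floxed allele in hepatocytes. *Med23* encodes a subunit of the Mediator complex of RNA polymerase II, and which liver cells lost or kept it was not measured here. All 6 livers received CCl4, so the comparison asks how treated livers differ by genotype. No uninjured liver sets the level from which any gene moved. For this time point the authors reported less necrosis and fewer dying cells in med23Δli than in control livers, so genotype and extent of injury cannot be told apart here. In whole-liver RNA, fewer cells of a type and less RNA per cell cannot be told apart.

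The genotype and the tissue were first examined in the values themselves. *Med23* was 3.42, 2.97 and 4.14 FPKM in the med23 f/f livers and 3.40, 3.40 and 2.91 FPKM in the med23Δli livers. The groups overlapped (log2 fold change -0.11 ± 0.17 (SE), limma with Benjamini-Hochberg adjustment, adjusted p = 0.685), so this whole-gene value, which counts all exons and all liver cells, did not separate the labels and the group names rest on them. The 10 hepatocyte markers summed to between 24432 and 37142 FPKM in the 6 libraries, and 1 of them rose and 1 fell. All 7 endothelial markers fell, with sums of 83.8 to 121 FPKM in med23 f/f and 44.9 to 48.1 FPKM in med23Δli. Of the other marker lists, 0 of 10 macrophage, 0 of 4 neutrophil and 0 of 5 cholangiocyte genes tested passed, 1 of 8 stellate cell genes fell, 1 of 6 erythroid genes passed as higher, and all 9 T, NK and B cell genes lay under 0.5 FPKM. That erythroid gene, *Hba-a1*, was at 0.00311 FPKM or less in the controls and entered the test through its med23Δli values alone, while the other 5, among them *Hba-a2* (-0.13), *Hbb-bs* (-2.06) and *Hbb-b2* (0.60), had log2 fold changes of either sign that did not pass. The med23Δli library 2 stood apart in holding RNA of adipocyte genes, with *Adipoq* at 5.65 and *Ucp1* at 2.29 FPKM, where the other 5 libraries listed at most 0.0907 FPKM for either gene. The deposited values hold no counts, so the depth of each single library is unknown and the spread between mice is the only error available.

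The promoters of the members were read from reference sequence, which the choice of members did not use. RefSeq promoter windows, from 250 bases before to 50 bases after a transcription start (GRCm38.p6), were at hand for 36 of the 44 members, 18 of each kind. They were searched on either strand for words of 3 kinds. E2F-like words (TTCCCGC together with its variants TTCGCGC and also TTGCCGC as well as TTGGCGC) are bound by E2F factors at genes of the G1/S transition. The cell cycle genes homology region or CHR (TTTGAA or else TTCGAA) is bound by the DREAM and MuvB complexes at mitotic genes, and the CCAAT box by NF-Y. An E2F-like word read on the reverse strand as GCGCCAA can share its last bases with a CCAAT box. An E2F-like word stood in 12 of 18 replication genes (66.7%) and 4 of 18 mitosis genes (22.2%), beside 19.0% of the 9138 genes tested for expression that had a window and 10.9% of all 27025 genes with one. A CHR word stood in 4 replication genes (22.2%) and 14 mitosis genes (77.8%), beside 16.0% and 21.7%, and a CCAAT box in 13 (72.2%) and 16 (88.9%), beside 42.7% and 41.1%. These are matches of letters, with no measurement of binding in these livers.

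**Figure D1:**
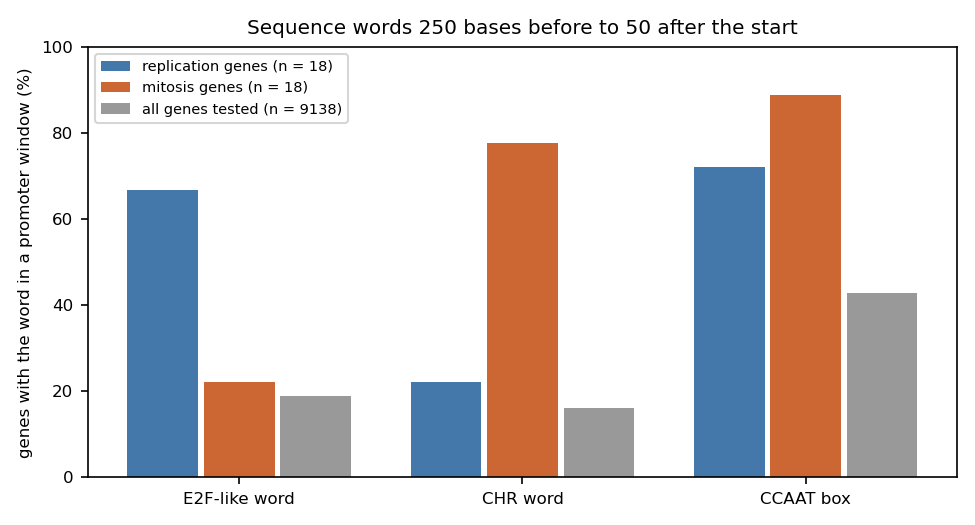
Share of genes (y axis, %) with each sequence word in a promoter window, for replication genes, mitosis genes and all genes tested that had a window. E2F-like words reach 66.7% in replication genes and 22.2% in mitosis genes, CHR words run the other way at 22.2% and 77.8%, and CCAAT boxes are frequent in both.

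The stretches below belong to the tested members of lowest p that hold a word, of which only *Cdt1*, *Mcm10* and *Prc1* passed the test. *Rfc5* and *Birc5*, whose windows hold no word, and *Gins2*, which had no window, were passed over although their p was lower than those of *Pcna* and *Rrm1*. The stretches are printed 5′ to 3′ on the gene's strand with the words in capitals. Each is the 150 bases before the start except that of *Cdt1*, whose words lie after it.
Cdt1, chr8:122568029-122568058, plus strand, 2 E2F-like words: atccGCGGGAActacctttTTGGCGCcatg
Mcm10, chr2:5012792-5012941, minus strand, 2 CCAAT boxes: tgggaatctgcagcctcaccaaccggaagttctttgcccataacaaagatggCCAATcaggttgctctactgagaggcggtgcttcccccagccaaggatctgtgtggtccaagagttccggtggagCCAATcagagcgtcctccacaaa
Prc1, chr7:80294326-80294475, plus strand, 1 CCAAT box and 1 CHR: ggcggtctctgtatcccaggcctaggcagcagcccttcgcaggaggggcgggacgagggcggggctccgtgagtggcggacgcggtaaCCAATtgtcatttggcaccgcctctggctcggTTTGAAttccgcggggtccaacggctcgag
Mcm2, chr6:88898781-88898930, minus strand, 1 CHR: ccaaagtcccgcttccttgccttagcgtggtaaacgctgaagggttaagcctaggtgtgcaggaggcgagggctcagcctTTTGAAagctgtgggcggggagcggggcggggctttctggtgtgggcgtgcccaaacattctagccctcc
Pcna, chr2:132253181-132253330, minus strand, 1 CCAAT box on the reverse strand: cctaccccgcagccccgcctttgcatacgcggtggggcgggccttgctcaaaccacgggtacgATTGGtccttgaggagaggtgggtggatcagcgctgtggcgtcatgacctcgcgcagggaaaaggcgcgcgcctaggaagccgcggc
Rrm1, chr7:102441545-102441694, plus strand, 2 CCAAT boxes and 1 E2F-like word: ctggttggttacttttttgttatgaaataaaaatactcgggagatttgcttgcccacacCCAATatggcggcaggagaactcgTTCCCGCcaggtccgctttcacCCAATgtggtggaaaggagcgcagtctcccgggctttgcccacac
The *Prc1* stretch holds a CCAAT box that begins 62 bases and a CHR that begins 30 bases before the later of 2 RefSeq starts of the gene. From the earlier start, which is near the gene start of the annotation, the CHR lies across the start itself. Both words stood somewhere in a window of 14 of 18 mitosis genes (77.8%) and 4 of 18 replication genes, beside 7.60% of the genes tested that had a window. The stretches of *Mcm10* and *Pcna* hold CCAAT boxes alone.

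Replication genes lay at higher levels than mitosis genes. The median of the gene means was 4.29 FPKM for replication and 0.469 FPKM for mitosis, with ranges of 0.182 to 49.0 and 0.0537 to 2.81 FPKM. By the mean of the 6 libraries, 13 of 44 members lay under 0.5 FPKM, 1 replication gene (*Cdc6*) and 12 mitosis genes (*Top2a*, *Mki67*, *Ccnb1*, *Ccnb2*, *Plk1*, *Bub1*, *Bub1b*, *Foxm1*, *Kif11*, *Cenpe*, *Tpx2* and *Nusap1*). Of all genes listed, 50.9% lay under that level. Counted by the med23 f/f mean the number was 14, *Prc1* being added, and by the med23Δli mean it was 9, of which 8 were mitosis genes. The genes nearest the limit were *Aurkb* (0.540) and *Ect2* (0.576) above it and *Plk1* (0.474) and *Foxm1* (0.464) below it. Across single libraries 27 members, 21 of them replication genes, were at or above 0.5 FPKM in all 6, and 7, with *Cdc6* the only replication gene, were under it in all 6. No member was listed at 0 in any library.

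**Figure D2:**
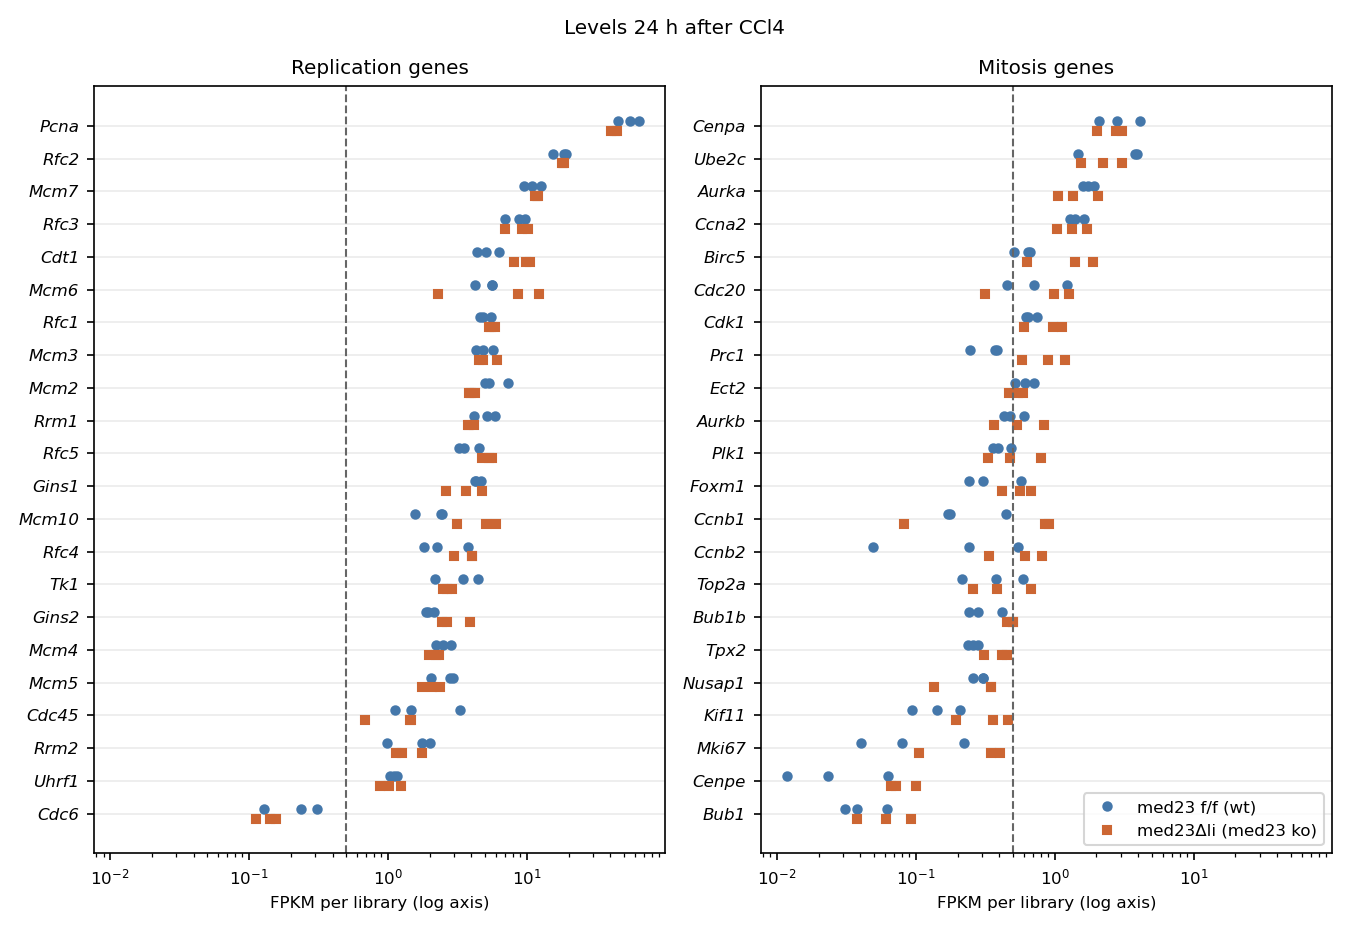
FPKM of each member in each library (x axis, log scale), replication genes left and mitosis genes right, ordered by mean, with circles for med23 f/f and squares for med23Δli (3 libraries each) and a dashed line at 0.5 FPKM. All replication genes but *Cdc6* lie right of the line, 12 of the 22 mitosis genes have their mean left of it, and the groups interleave for most genes.

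For the group comparison, genes averaging 0.5 FPKM or more were tested on log2(FPKM + 0.1), a scale that understates changes of low genes. Of 11956 genes tested, 1384 were higher and 1133 lower in med23Δli at an adjusted p under 0.05. Among the members 31 were tested, 21 replication and 10 mitosis genes, and 3 were higher (9.68%) and 0 lower, a share near that of all genes in the upward direction. At an unadjusted p under 0.05 the numbers were 6 higher and 1 lower, beside 20.5% and 17.1% of all genes tested. More than 2-fold differences were found for 2 members, *Mcm10* and *Prc1*, both higher, beside 4.45% of genes higher and 3.45% lower by that measure. With a pseudocount of 1 neither reached 2-fold (log2 fold changes 0.85 and 0.49), and no member was past 2-fold and the test without a filter on level, without med23 f/f library 1 or without med23Δli library 3. The median log2 fold change was 0.04 over the replication genes tested, -0.03 over the mitosis genes and 0.02 over all genes. The libraries of the groups did not overlap for 5 members above (*Mcm10*, *Rfc5*, *Gins2*, *Cdt1* and *Prc1*) and 3 below (*Mcm2*, *Pcna* and *Rrm1*) the controls, where 23.3% and 20.4% of all genes were so placed.

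**Figure D3:**
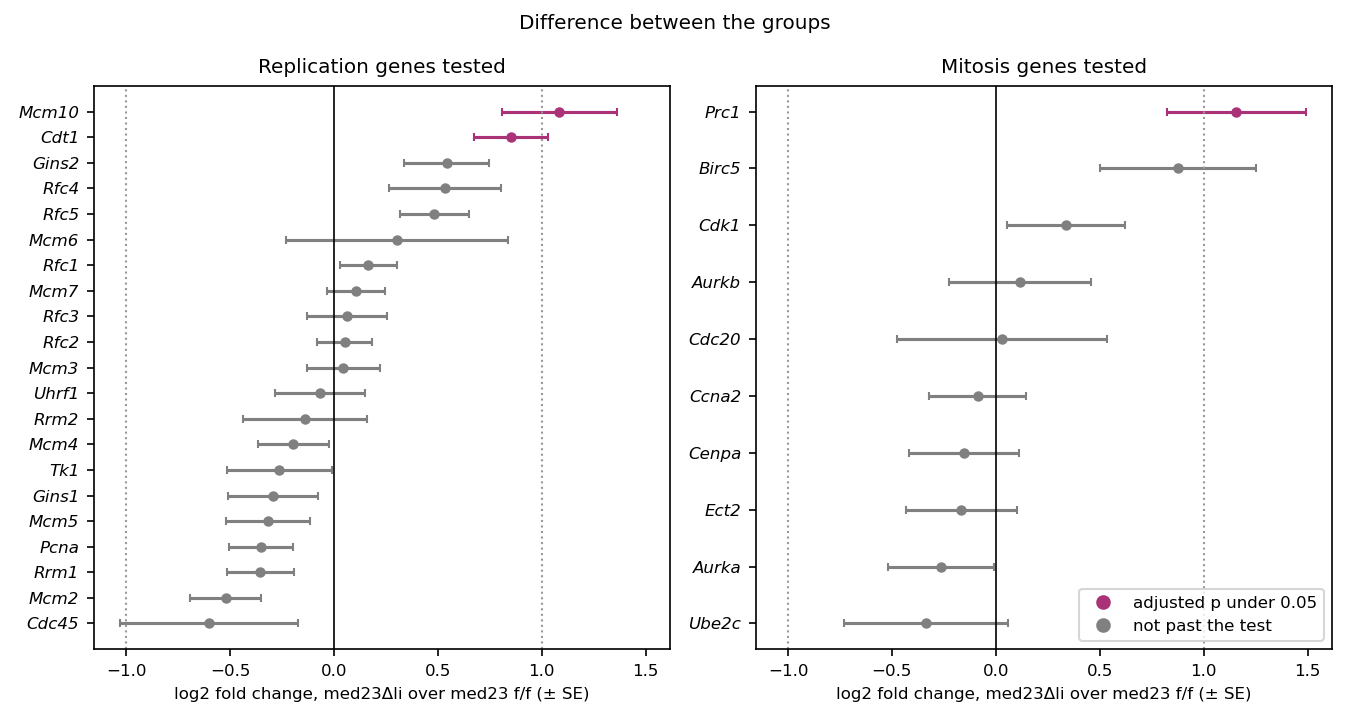
Log2 fold change of med23Δli over med23 f/f (x axis, ± SE, n = 3 livers each) for the 21 replication and 10 mitosis genes tested. *Mcm10*, *Cdt1* and *Prc1*, coloured, passed an adjusted p under 0.05, the dotted lines mark 2-fold, and most other members sit within 0.5 of 0.

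The licensing and helicase-activation genes held both replication genes that rose. *Cdt1* (chr8:122568015-122573554, plus strand, mm10), the loader of the MCM rings that is destroyed once S phase begins, was at 4.36, 6.29 and 5.09 FPKM in med23 f/f and 9.87, 10.6 and 8.10 FPKM in med23Δli. Every med23Δli liver lay above every control, and the log2 fold change was 0.85 ± 0.18 (SE, limma with Benjamini-Hochberg adjustment, adjusted p = 0.0167). *Mcm10* (chr2:4989714-5012791, minus strand), which activates the loaded helicase, was at 2.45, 2.43 and 1.57 FPKM against 5.07, 3.16 and 6.01 FPKM. Its lowest med23Δli value, in library 2, was still above all controls, with a log2 fold change of 1.09 ± 0.27 (SE, limma, adjusted p = 0.0301). Neither gene's exons overlap another annotated gene. The adjusted p of *Cdt1* was 0.0713 without med23Δli library 1 and 0.0727 without library 2, and that of *Mcm10* ranged from 0.0301 to 0.108 over the removal of single libraries, passing only without med23 f/f library 2 (0.0485) or med23Δli library 2.

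The other members of this step did not pass the test. *Gins2*, a subunit of the GINS complex, was at 2.14, 1.95 and 1.89 FPKM in controls and 2.68, 2.45 and 3.89 FPKM in med23Δli, without overlap but not past the test (0.54 ± 0.20, limma adjusted p = 0.0947). Of its 4097 exon bases 2758 are shared with *Gse1* on the opposite strand, which was at 5.03 to 10.6 FPKM, and reads of the 2 genes cannot be told apart in libraries made without strand. *Gins1*, its partner subunit, had a log2 fold change of -0.30 and *Cdc45*, the third part of the moving helicase, one of -0.60 with an SE of 0.43, neither past the test. Leaving out single libraries moved them between -0.50 and -0.08 and between -0.91 and -0.17. *Cdc6*, the licensing partner of CDT1, was low throughout, at 0.239, 0.310 and 0.128 FPKM in controls and 0.112, 0.142 and 0.157 FPKM in med23Δli, and overlapped.

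The 6 subunits of the MCM helicase ring were all detected and none passed the test. *Mcm7* was the most abundant, at 12.6, 9.51 and 10.8 FPKM in med23 f/f and 11.5, 11.8 and 12.0 FPKM in med23Δli. Its groups overlapped, with a log2 fold change of 0.11 ± 0.14 (SE). *Mcm2* was at 5.35, 7.27 and 4.996 FPKM in controls and 3.86, 3.96 and 4.21 FPKM in med23Δli. All med23Δli values were lower, in a narrow band, and the log2 fold change of -0.52 ± 0.17 (SE) missed the threshold by limma (adjusted p = 0.0641). *Mcm6* was 5.58, 4.25 and 5.60 FPKM in controls but 2.31, 8.72 and 12.3 FPKM in med23Δli. The med23Δli livers thus spanned both sides of the control range, the coefficient of variation was 65.1%, and the log2 fold change went from 0.30 (adjusted p = 0.709) to 1.01 (limma, adjusted p = 0.0479) when med23Δli library 1 was left out. *Mcm3*, *Mcm4* and *Mcm5* had means of 5.07, 2.35 and 2.34 FPKM and log2 fold changes between -0.32 and 0.04.

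The sliding clamp and the loader subunit *Rfc2* had the highest levels of all members, at means of 49.0 and 18.1 FPKM. *Pcna*, the clamp that tethers DNA polymerases and a common stain for cycling cells, was at 55.6, 45.5 and 64.4 FPKM in med23 f/f and 44.8, 43.4 and 40.6 FPKM in med23Δli. The med23Δli values lay just below the lowest control and varied less, and the log2 fold change of -0.35 ± 0.15 (SE) did not pass (limma, adjusted p = 0.139). Annotated *Pcna* pseudogenes could share reads with it. *Rfc5*, a small subunit of the clamp loader, was at 4.52, 3.25 and 3.52 FPKM in controls and 5.63, 4.78 and 5.38 FPKM in med23Δli. These did not overlap but missed the threshold (0.48 ± 0.17, limma adjusted p = 0.0740), which they passed without med23 f/f library 1 (0.62, adjusted p = 0.0447), and 499 of its exon bases are shared with *Wsb2* on the opposite strand, itself at 72.4 to 101 FPKM. *Rfc2* was at 18.7, 19.3 and 15.4 FPKM in controls and 18.4, 18.03 and 18.6 FPKM in med23Δli, and *Rfc3* at 8.85, 9.64 and 6.93 FPKM and 9.32, 7.03 and 10.3 FPKM. Both overlapped with the controls, *Rfc3* exceeding them in med23Δli library 3, with log2 fold changes of 0.05 and 0.06. *Rfc4* had a log2 fold change of 0.53 (limma, adjusted p = 0.186), which passed only without med23 f/f library 1 (0.82, adjusted p = 0.0477), and *Rfc1*, the large subunit, one of 0.17.

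Genes of nucleotide supply and of methylation upkeep all had negative log2 fold changes, none past the test. *Rrm1*, the large subunit of ribonucleotide reductase, was at 5.93, 5.19 and 4.20 FPKM in controls and 3.87, 3.79 and 4.16 FPKM in med23Δli. The highest med23Δli value was only just below the lowest control, and the log2 fold change was -0.35 ± 0.16 (SE, limma, adjusted p = 0.151). *Rrm2*, the small subunit made in S phase, *Tk1*, thymidine kinase, and *Uhrf1*, which recruits the maintenance methyltransferase to newly copied DNA, had means of 1.49, 3.02 and 1.08 FPKM and log2 fold changes of -0.14, -0.26 and -0.07. Leaving out med23 f/f library 3 brought *Mcm2* (-0.63, limma adjusted p = 0.0384) and *Rrm1* (-0.48, adjusted p = 0.0498) past the threshold as lower.

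Of the 10 mitosis genes tested, 1 passed as higher, *Prc1*, beside 11.6% of all genes, and the other 12 mitosis genes were too low to test. PRC1 bundles the microtubules of the spindle midzone before the cell divides. The gene (chr7:80294450-80316259, plus strand) was at 0.374, 0.246 and 0.388 FPKM in med23 f/f and 0.902, 0.586 and 1.19 FPKM in med23Δli. The groups were separate, with med23Δli library 2 the lowest of its group, and the log2 fold change was 1.16 ± 0.33 (SE, limma, adjusted p = 0.0447). Its control mean of 0.336 FPKM was under 0.5, so that it entered the test through its med23Δli values. Its adjusted p was between 0.0451 and 0.137 when single libraries were left out, and only the fit without med23 f/f library 3 kept it under 0.05. Of its 8225 exon bases 911 are shared with *Rccd1* on the opposite strand, whose 6 values of 1.87 to 2.63 FPKM overlapped between groups with a log2 fold change of 0.00.

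The more abundant mitosis genes overlapped between the groups. *Cenpa*, the histone H3 variant that marks centromeres, was at 4.08, 2.82 and 2.08 FPKM in controls and 2.79, 2.03 and 3.04 FPKM in med23Δli. *Ube2c*, the ubiquitin-conjugating enzyme of the anaphase-promoting complex, was at 3.90, 3.79 and 1.48 FPKM and 2.25, 1.55 and 3.06 FPKM. Both spread widely within a group, and their log2 fold changes of -0.15 and -0.34 were smaller than their SE of 0.27 and 0.39. *Aurka*, the kinase of the spindle poles, was at 1.73, 1.93 and 1.59 FPKM in controls and 1.35, 1.06 and 2.05 FPKM in med23Δli. *Ccna2*, cyclin A2, which acts in S phase and at mitotic entry, was at 1.61, 1.41 and 1.28 FPKM and 1.72, 1.03 and 1.34 FPKM. Neither separated the groups, with log2 fold changes of -0.26 and -0.09. *Birc5*, survivin of the chromosomal passenger complex, was at 0.508, 0.669 and 0.643 FPKM in controls and 1.39, 0.630 and 1.88 FPKM in med23Δli. Libraries 1 and 3 of med23Δli were more than 2 times any control while library 2 lay among the controls, giving 0.88 ± 0.38 (limma, adjusted p = 0.130), and 1.29 with an adjusted p of 0.0428 without library 2. *Cdk1*, *Aurkb*, *Cdc20* and *Ect2* had means of 0.540 to 0.827 FPKM and log2 fold changes of -0.17 to 0.34, none past the test.

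The 12 mitosis genes and *Cdc6* under 0.5 FPKM were left out of the main test. Their values are described here, followed by a fit without the filter. *Mki67*, which encodes the proliferation antigen Ki-67, was at 0.221, 0.0403 and 0.0803 FPKM in med23 f/f and 0.406, 0.106 and 0.348 FPKM in med23Δli. Its med23Δli library 2 lay within the control range. *Bub1b*, the checkpoint kinase BUBR1, was at 0.420, 0.241 and 0.279 FPKM against 0.503, 0.505 and 0.450 FPKM. *Cenpe*, a kinetochore motor, was at 0.0627, 0.0118 and 0.0234 FPKM against 0.0998, 0.0716 and 0.0666 FPKM, and *Tpx2*, an activator of Aurora A, at 0.281, 0.236 and 0.260 FPKM against 0.415, 0.308 and 0.454 FPKM. These last 3 were the members under the limit whose groups did not overlap, each higher in med23Δli, where 9.98% of the 2194 genes under 0.5 FPKM and above 0 in every library lay wholly above the controls and 13.1% wholly below. With 3 livers a side the exact permutation test (two-sided) gives p = 0.1 at its smallest. Of the 12 mitosis genes 11 had a higher mean in med23Δli, *Nusap1* (0.289 and 0.278 FPKM) being the exception. When the 17752 genes above 0 in any library were fitted, 11 of the 13 low members had a positive log2 fold change, their median was 0.45, and none passed (limma, lowest adjusted p = 0.143), with *Kif11* (0.80) and *Cenpe* (0.45) the only ones at an unadjusted p under 0.05 in that limma fit, both higher. Among the 2194 genes under 0.5 FPKM and above 0 in every library, the same fit gave a positive log2 fold change to 43.6%, a median of -0.07, and an unadjusted p under 0.05 to 7.57% as higher and 9.98% as lower.

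Values of the mitosis genes were then set side by side by library. As log2 difference from the med23 f/f mean, their median was 0.16, -0.07 and -0.09 in the controls and 0.55, -0.10 and 0.50 in med23Δli libraries 1, 2 and 3. Library 2 of med23Δli held the lowest value of its group for 18 of 22 mitosis genes and for 12 of 22 replication genes. The mitosis medians of libraries 1 and 3 rest in part on the 12 genes under 0.5 FPKM, for which the 3 med23Δli medians were 0.75, 0.11 and 0.50, while for the 10 genes tested they were 0.10, -0.29 and 0.43 beside 0.14, -0.03 and -0.11 in the controls. The same medians for replication genes were 0.10, 0.03 and -0.14 in controls and -0.13, -0.12 and 0.12 in med23Δli, and those of all genes tested stayed within -0.03 and 0.07. The mean of med23Δli exceeded that of med23 f/f for 5 of the 10 mitosis genes tested, 11 of the 12 under 0.5 FPKM and 11 of 22 replication genes, and 6240 of the 11956 genes tested had a positive log2 fold change. Library 2 is the one with adipocyte RNA, and its marker sums were the highest of the med23Δli group for the hepatocyte, neutrophil, stellate cell and T, NK and B cell lists. For neutrophil genes it held 99.5 FPKM beside 39.7 and 67.2 FPKM in libraries 1 and 3, and the controls held 42.2, 90.2 and 135 FPKM. Its hepatocyte, neutrophil and stellate cell sums lay within the control range, and its T, NK and B cell sum above it. The part of the adipocyte RNA and of these sums in the mitosis pattern was not tested. The median coefficient of variation was 17.0% in controls and 15.4% in med23Δli for replication genes, and 32.0% and 37.3% for mitosis genes.

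**Figure D4:**
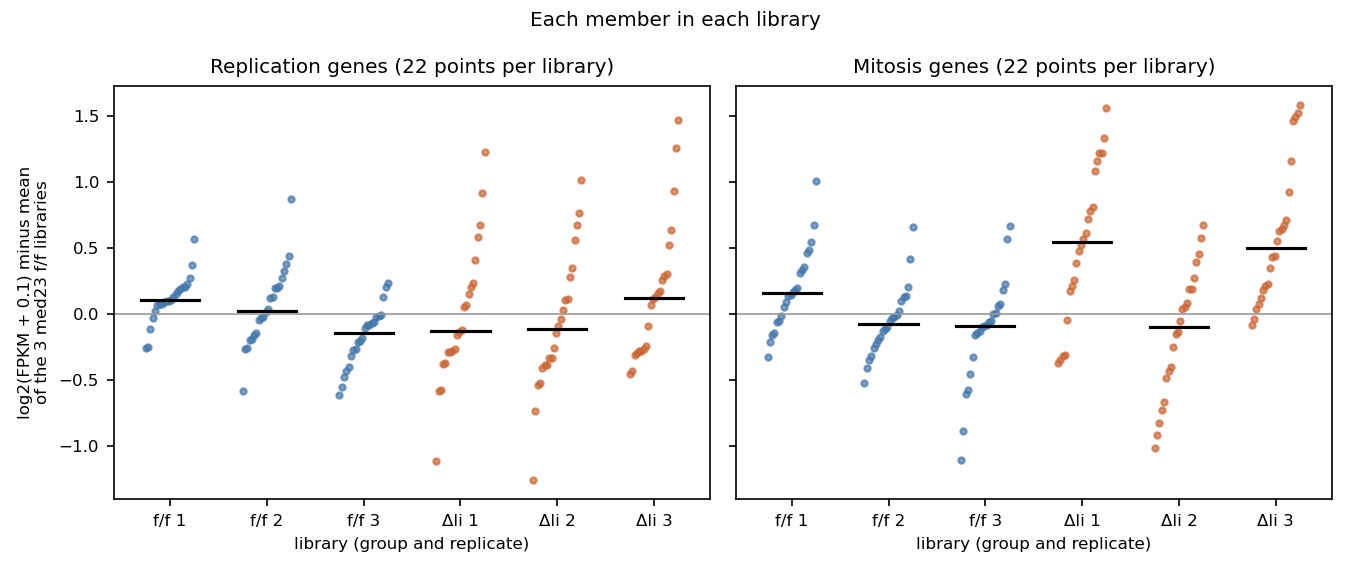
Difference of each gene from the mean of the 3 med23 f/f libraries (y axis, log2(FPKM + 0.1)) in each of the 6 libraries, 22 replication genes left and 22 mitosis genes right, with black bars at the medians. The mitosis medians of med23Δli libraries 1 and 3 (0.55 and 0.50, over all 22 genes) lie above that of library 2 (-0.10), and the replication medians stay between -0.14 and 0.12.

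Around the members, 8 lists of other replication and mitosis genes, 176 genes in all, gave the wider picture. Of these 121 were tested, 11 were higher (9.09%) and 9 lower (7.44%) in med23Δli, beside the 11.6% and 9.48% of all genes, with a median log2 fold change of 0.06. In origin licensing and firing 3 of 16 tested rose, *Gins3* (0.63) and *Gins4* (0.51), the GINS subunits outside the chosen set, and *Dbf4* (0.62), the activator of the CDC7 kinase, and none fell. Among polymerases and fork proteins *Pola1*, the catalytic subunit of polymerase alpha, rose by 1.37 on the log2 scale, having entered the test through its med23Δli values (means of 0.454 and 1.23 FPKM), while *Dna2*, a nuclease of Okazaki fragments, fell by 1.05 and *Timeless*, of the fork protection complex, fell by 1.03, out of 20 tested. In the list of nucleotide supply, chromatin assembly and DNA methylation 1 of 14 passed. This was *Chaf1b*, a subunit of the histone chaperone CAF-1, at 4.17, 3.79 and 3.51 FPKM in controls and 1.08, 1.84 and 1.45 FPKM in med23Δli (log2 fold change -1.36 ± 0.21, limma adjusted p = 0.00704). Of 16 E2F, RB and DREAM regulators tested, *Rb1* (0.92), the retinoblastoma repressor, and *Tfdp2* (0.64), an E2F dimer partner, rose and *Rbl1* (-1.07), which encodes p107 of the DREAM complex, fell.

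On the mitotic side, none of 8 entry kinases and phosphatases tested passed by limma, with 1 higher and 0 lower at an unadjusted p under 0.05. Of 15 kinetochore and checkpoint genes tested 4 rose and 2 fell. *Zwint*, which anchors the ROD-ZW10-zwilch complex at kinetochores, stood out by level, at 71.3, 71.9 and 73.4 FPKM in controls and 150, 137 and 137 FPKM in med23Δli. The replicates were tight and far apart (log2 fold change 0.97 ± 0.12, limma adjusted p = 0.00318). *Cenpw* (1.16), *Cenpl* (0.72) and *Mad2l1* (0.58) also rose, and *Hjurp* (-0.68), the chaperone that deposits CENP-A, and *Bub3* (-0.62), a checkpoint protein, fell. Of 6 spindle and cytokinesis genes tested *Ckap2* (0.87) rose and *Kpna2* (-0.51), an importin, fell, with 19 more under 0.5 FPKM. Of 26 genes of condensation, cohesion and anaphase, *Anapc4* (-0.84, limma adjusted p = 0.00618) and *Anapc7* (-0.48), subunits of the anaphase-promoting complex, fell. Of the 20 list genes past the test, *Dna2*, *Chaf1b*, *Zwint* and *Anapc4* passed whichever single library was left out, and the other 16 lost the call in at least 1 such fit. *Gins3* and *Gins4* lost it in all of them, with adjusted p of at least 0.0567 and 0.0591 by limma. The 7 endothelial markers fell in the same comparison, and the part of that fall in the genes that fell here was not tested.

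**Figure D5:**
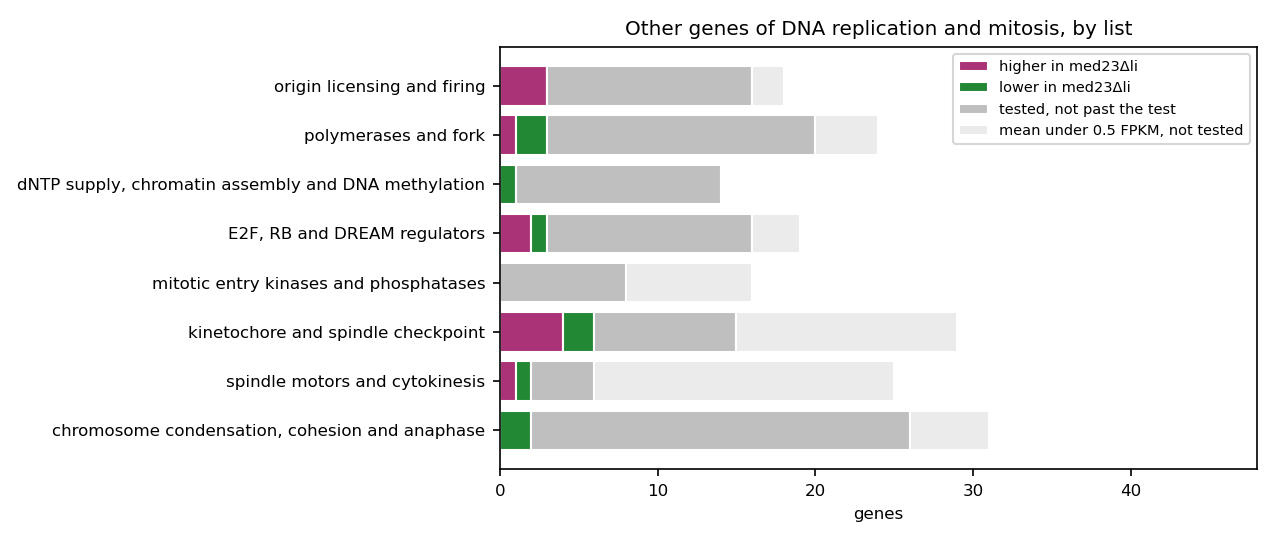
Number of genes (x axis) in each of 8 lists of replication and mitosis genes outside the 44 members, split into those higher in med23Δli, lower, tested without passing, and under 0.5 FPKM. In all, 11 of 121 tested are higher and 9 lower, the kinetochore and spindle checkpoint list has the most (4 higher and 2 lower of 15), the list of entry kinases and phosphatases has none, and most spindle motor and cytokinesis genes were too low to test.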

How the data were processed

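RNA of 6 whole livers (1 mouse per library) was sequenced as paired reads from TruSeq v2 libraries, which keep no strand. The authors trimmed adapters, used TopHat for alignment to mm10 and Cuffdiff for quantification, and the deposited table holds FPKM per library. Tool versions, the annotation and the Cuffdiff options are not given in the sources used here. The authors' group means, fold changes, p-values and q-values were not used. Every library column was mapped by its name. FPKM values showed no step of whole reads (at most 2.31% of low genes shared 1 ratio between 2 libraries), so the depth of each single library is unknown, and 10 of 10 housekeeping genes were above 0 throughout.

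Genes averaging 0.5 FPKM or more were compared as log2(FPKM + 0.1) with limma 3.58.1 (lmFit, eBayes with trend) in R 4.3.3, with Benjamini-Hochberg adjustment over all genes tested and a threshold of 0.05. The p-values measure the spread between these 6 mice. The fit was tested on simulated data. The members, the 8 pathway and 8 marker lists and the tests were chosen with earlier results of these data known. Values per library are given for members past the test, the 5 highest of each class, *Pcna*, *Mki67* and members whose groups do not overlap. Outside that rule they are also given for *Mcm6* and *Cdc6*. Of each list the genes past the test are named, at most 4 in each direction. Alternatives were other pseudocounts (1 and 0.01), filters (none and 1 FPKM), centring, quantile normalization, eBayes without trend or robust, the replicate number as a block, and leaving out each library. Positions come from GENCODE M21 (GRCm38, the assembly of mm10) and promoters from RefSeq.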

Additional observations from a re-analysis of the deposited data

How the results depend on the processing

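*Cdt1*, *Mcm10* and *Prc1* remained higher and past the test under both other pseudocounts, median centring, quantile normalization and eBayes without a trend or robust. Without a filter 1 replication gene (*Cdt1*) and 0 mitosis genes were higher, and with a filter at 1 FPKM, which removes *Prc1*, 0 mitosis genes. Members higher by more than 2-fold, 2 as reported, were 0 with a pseudocount of 1, 0 without a filter and 1 with a filter at 1 FPKM. Same-numbered libraries did not deviate together (correlations -0.02, -0.05 and -0.12 across genes). With 3 libraries a group this cannot decide whether mice were paired, for example by litter. With the replicate block 809 genes were higher and 614 lower, with 1 replication gene (*Cdt1*), 0 mitosis genes and 0 members past 2-fold. Leaving out single libraries gave 397 to 1723 genes higher, 343 to 1420 lower, 1 to 3 replication genes higher, 0 to 2 lower (2, *Mcm2* and *Rrm1*, without med23 f/f library 3), 0 to 1 mitosis genes higher and 0 to 2 members past 2-fold. The lowest counts of genes, 397 and 343, came without med23Δli library 1, beside 478 and 424 without library 2 and 553 and 384 without library 3. Without med23 f/f library 2, 744 genes were lower. Small differences changed sign when single libraries were left out, with log2 fold changes of -0.084 to 0.15 for *Mcm3*, -0.17 to 1.01 for *Mcm6*, -0.050 to 0.11 for *Rfc2*, -0.075 to 0.22 for *Rfc3*, -0.43 to 0.046 for *Rrm2*, -0.19 to 0.041 for *Uhrf1*, -0.26 to 0.085 for *Ccna2*, -0.14 to 0.36 for *Aurkb*, -0.31 to 0.55 for *Cdc20* and -0.38 to 0.090 for *Cenpa*, and *Cdc20* was -0.00052 under median centring. The fits without a library or a filter hold fewer mice or more genes, and the cause of the other changes was not tested. Of the values for single genes, 616 kept direction and side of the threshold, 120 no longer passed, 6 newly passed and 16 changed sign. The 120 all come from the 3 members and 20 list genes past the test in the main fit, as only these could stop passing. With a window of 250 bases before the start only, E2F-like words stood in 8 and 4 and CHR words in 4 and 10 replication and mitosis genes. With no counts, the precision of low values such as those of the 13 members under 0.5 FPKM is unknown.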
